A study of Mus musculus with 2 samples.

Results

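The molecular chaperones of the endoplasmic reticulum (ER) and the transcription factor Xbp1 were described in cultured mouse ovaries. They comprised 10 genes, Hspa5, Hsp90b1, Dnajb9, Sdf2l1, Calr, Canx, Pdia3, Pdia4, Pdia6 and Xbp1, chosen by name. Every probe assigned by the array's design to RefSeq transcripts of these genes was taken, after control and outlier-marked spots were left out. This gave 12 of the 55674 probes that remained, and 10 of the 20658 genes that could be named. Probes listed under other kinds of accession could not be assigned to these genes. Ovaries of 2-week-old mice were cut lengthwise into symmetrical pieces and kept for 3 days on culture inserts with tachykinin receptor (TKR) ligands, each at 1 μM. The TKR agonist group received agonists of TACR1, TACR2 and TACR3, the receptors of the tachykinin neuropeptides, including the TACR1 agonist [Sar9, Met(O2)11]-SP and the TACR2 agonist GR-64349. The TKR antagonist group received antagonists of the same receptors, including the TACR2 antagonist GR-94800 and the TACR3 antagonist SB218795. Total RNA of each group was labelled with Cy3 and hybridised to 1 single-colour array, and the strain and the number of ovaries behind each RNA are not given for the arrays. No array of untreated ovaries was analysed here, so every value below compares the ligand groups with each other.

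With 1 array per group there was no replicate, no spread between ovaries and no test, and no p-value is given. The software errors below are those that the image analysis software gives for a spot, and they are nearly a fixed share of the signal. Under agonists the error was 5666 on a signal of 56660 for Hspa5 and 1459 on 14588 for Calr. As each probe of the chaperones and Xbp1 had 1 spot per array, these errors are not a spread measured between repeated spots. In RNA of whole pieces of ovary, fewer cells of a type and less RNA per cell cannot be told apart.

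Proteins that are secreted or placed in membranes fold in the ER, where chaperones hold unfolded chains, lectins retain sugar-bearing chains and disulphide isomerases form and rearrange their disulphide bonds. When unfolded protein accumulates, the sensors IRE1, ATF6 and PERK start the unfolded protein response. IRE1 splices the Xbp1 transcript, and spliced XBP1 and ATF6 raise the transcription of ER chaperones through the ER stress response element (ERSE), while PERK slows translation and favours ATF4 and CHOP. In the ovary, granulosa cells, oocytes and theca cells all secrete proteins, among them inhibins and the zona pellucida.

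The ERSE was looked for in the promoters of the 10 genes, because it is the sequence that many ER chaperone genes are known to share. The 250 bases before the annotated start of each gene were read from RefSeq (GRCm38.p6), and 10 of 10 genes matched by symbol. The motif searched was CCAAT followed, after 9 bases of any kind, by CCACG, on both strands. It occurred in 5 of the 10 genes, Hspa5, Hsp90b1, Calr, Canx and Pdia6, and in 37 (0.113%) of the 32851 promoter windows of the same length searched. With at most 1 mismatch in the fixed letters, Pdia3 and Pdia4 were added, which made 7 of 10 genes against 1.32% of the windows. The related motifs ERSE-II (ATTGG, 1 base of any kind and CCACG, in 0.0304% of the windows) and the XBP1 motif core (TGACGTGG, in 0.563%) were in 0 of the 10 windows. ERSE-II and the reverse of the XBP1 core share the letters CCACG with the ERSE. A match describes these letters and is not a binding site shown by these data, and a window without a match shows only that the letters are not in it.

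The whole window of Hspa5 (chr2:34771840-34772089, plus strand) is shown because its ratio was the lowest of the 10 genes. The other matches are shown with their flanks because the distance of the CCAAT and CCACG blocks and their direction can be compared by eye. Capitals mark the fixed letters of the ERSE, and every sequence reads 5′ to 3′ on the strand of its gene.
Hspa5: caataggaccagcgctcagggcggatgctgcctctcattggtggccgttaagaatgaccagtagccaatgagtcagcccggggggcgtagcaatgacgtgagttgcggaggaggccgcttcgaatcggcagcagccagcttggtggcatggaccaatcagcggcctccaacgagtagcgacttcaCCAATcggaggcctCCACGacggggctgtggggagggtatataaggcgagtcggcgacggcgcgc
Hsp90b1, distal match: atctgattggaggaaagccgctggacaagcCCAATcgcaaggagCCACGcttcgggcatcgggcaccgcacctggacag
Hsp90b1, proximal match: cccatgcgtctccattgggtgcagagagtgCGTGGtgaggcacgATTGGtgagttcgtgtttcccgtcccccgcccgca
Calr: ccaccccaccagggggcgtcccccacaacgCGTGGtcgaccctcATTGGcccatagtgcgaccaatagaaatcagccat
Canx: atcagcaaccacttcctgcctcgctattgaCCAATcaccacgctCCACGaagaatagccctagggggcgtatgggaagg
Pdia6: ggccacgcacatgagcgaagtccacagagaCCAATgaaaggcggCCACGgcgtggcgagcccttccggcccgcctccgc
The matches of Hsp90b1 lie in chr10:86705608-86705686 and chr10:86705503-86705581 on the minus strand, that of Calr in chr8:84847045-84847123 and that of Canx in chr11:50325770-50325848 on the minus strand, and that of Pdia6 in chr12:17266461-17266539 on the plus strand. The match began 65 bases before the start of Hspa5, 98 before that of Pdia6, 145 before that of Canx and 162 before that of Calr, and 212 and 107 bases before that of Hsp90b1. In Calr and in the proximal match of Hsp90b1 it read on the opposite strand, so that CGTGG comes before ATTGG.

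The image analysis software judged 12 of the 12 probes well above background on each array. Their processed signals lay between 102 and 72675 signal units under agonists and between 80.2 and 63052 under antagonists, against a lowest signal well above background of 18.1 and 19.9. Each probe had 1 spot per array. Spots marked as outliers had been left out beforehand, so a probe with such a mark could not be among the 12. For scaling, each signal was divided by the 75th percentile of all signals on the same array (672 signal units under agonists and 569 under antagonists) and taken as log2. A log2 ratio is the scaled agonist value minus the scaled antagonist value. Signals of different probes were not set against each other as levels of transcript, because probes differ in how well they bind.

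**Figure D1:**
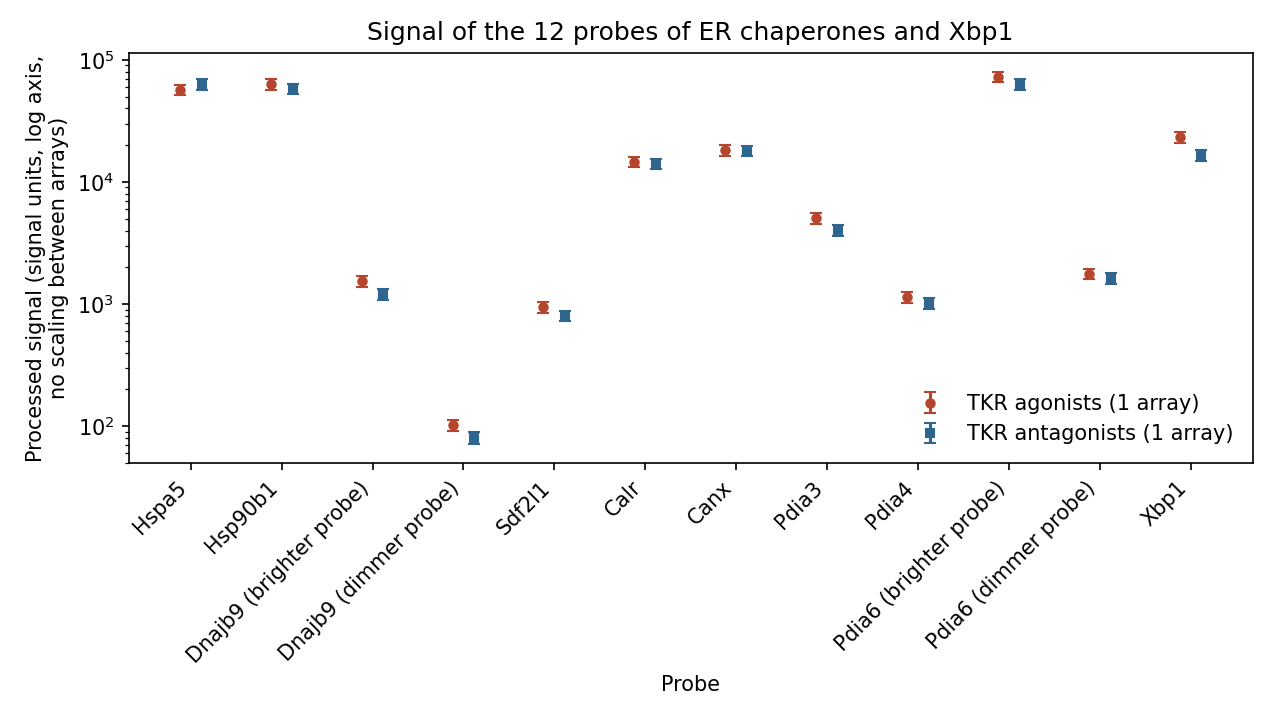
Processed signal of the 12 probes of the ER chaperone genes and Xbp1 on the agonist array (circles) and the antagonist array (squares), before any scaling between arrays, on a log axis. Bars are the error that the image analysis software gives for the spot and are mostly hidden by the symbols. Only Hspa5 lay lower under agonists before scaling.

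Relative to their arrays, the 10 genes differed little between the ligand groups. Their log2 ratios ran from -0.39 for Hspa5 to 0.25 for Xbp1, with a median of -0.06 and an SD across genes of 0.19. Among all 15260 named genes that passed this criterion on both arrays, the median was -0.10, the SD 0.48, and the range from the 5th to the 95th percentile -0.55 to 0.89. The 10 genes therefore all lay within the range that holds most genes. A log2 ratio below 0 was found in 7 of them, where 62.3% of all genes had one, and a ratio above 0 in 3, where 37.7% of all genes had one. Against the median of all genes, 4 lay below and 6 above. Of the 10 genes, 0 were at least 2-fold lower under agonists, against 0.57% of all genes, and 0 were at least 2-fold higher, against 4.01%. At a 1.5-fold threshold the counts were also 0 and 0, against 4.28% and 9.26% of all genes.

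**Figure D2:**
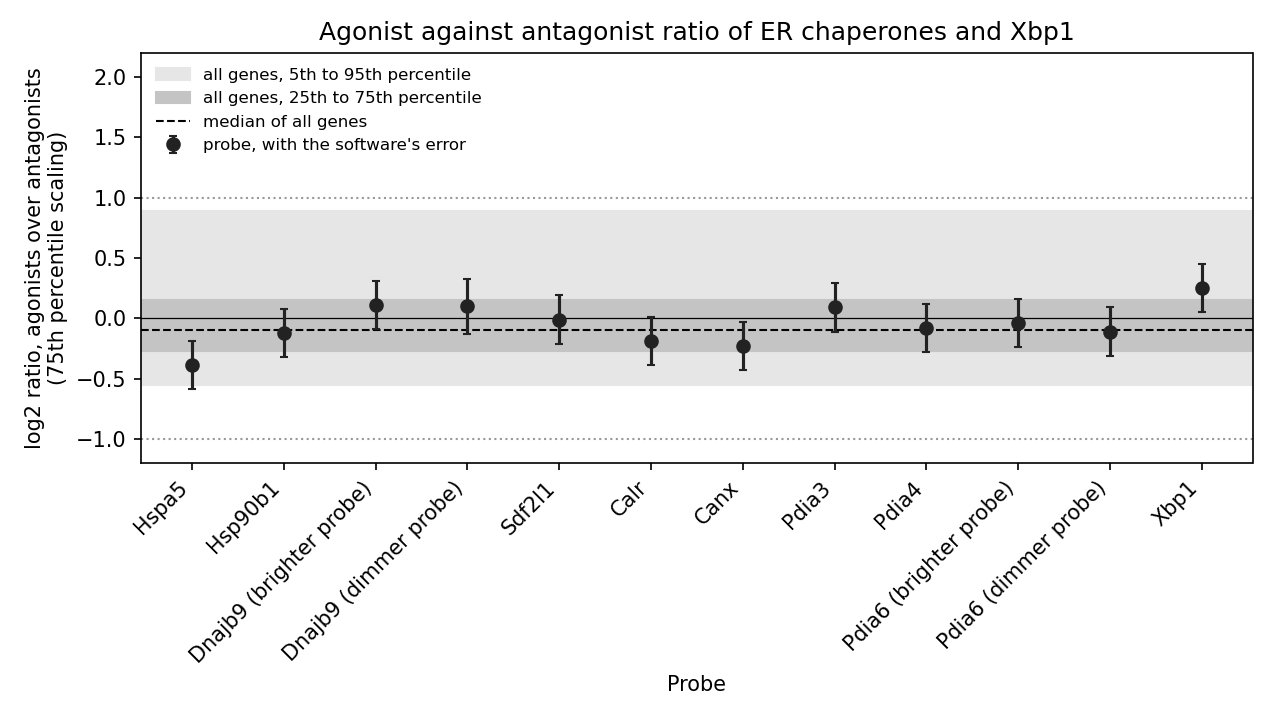
Log2 ratio of the agonist over the antagonist array for each of the 12 probes, after 75th percentile scaling, with the software's error of the ratio as bars. Grey bands hold all genes from the 5th to the 95th and from the 25th to the 75th percentile, the dashed line is their median of -0.10, and dotted lines mark a 2-fold difference. Hspa5 (-0.39) and Xbp1 (0.25) lie outside the inner band, and every probe lies within the outer one.

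Hspa5 encodes BiP, the HSP70 of the ER lumen, which binds unfolded chains and holds the stress sensors inactive. Its signal was 56660 under agonists and 62985 under antagonists, the reverse of the order of the other 11 probes. After scaling, the log2 ratio was -0.39, or 1.31-fold lower under agonists, with a software error of 0.20. This was the lowest of the 10 genes, lay 0.30 below the median of all genes, and 12.2% of all genes had a ratio as low or lower. Hsp90b1 encodes GRP94, the HSP90 of the ER lumen. Its signal was 62843 under agonists and 57859 under antagonists, and its log2 ratio of -0.12 was 0.03 below the median of all genes. The ratios of these chaperones thus differed by 0.27, with a software error of 0.20 on each.

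Dnajb9 and Sdf2l1 encode co-factors of BiP. DNAJB9 is a J-domain protein of the ER lumen, and SDF2L1 forms a complex with another J-domain protein, DNAJB11. The brighter Dnajb9 probe gave 1530 signal units under agonists and 1198 under antagonists, a log2 ratio of 0.11. The dimmer one gave 102 and 80.2, a log2 ratio of 0.10. The ratios thus differed by 0.01 although the mean signals were 15.0-fold apart. Sdf2l1 had 945 signal units under agonists and 804 under antagonists, and its log2 ratio of -0.01 was 0.09 above the median of all genes.

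Calr and Canx encode calreticulin and calnexin, the lectins that hold newly made glycoproteins, the former free in the lumen and the latter in the membrane. Calr gave 14588 signal units under agonists and 14123 under antagonists, a log2 ratio of -0.19. Canx gave 18129 and 17962, a log2 ratio of -0.23. They were the genes next lowest after Hspa5, and lay 0.10 and 0.13 below the median of all genes, less than the software error of 0.20.

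Pdia3, Pdia4 and Pdia6 encode protein disulphide isomerases. PDIA3, also called ERp57, works together with calreticulin and calnexin. Its probe gave 5072 signal units under agonists and 4035 under antagonists, a log2 ratio of 0.09, so it lay 0.28 above Calr. Pdia4 gave 1140 and 1020, a log2 ratio of -0.08, nearly that of the median gene. Pdia6 was measured by a pair of probes. The brighter gave 72675 under agonists and 63052 under antagonists, a log2 ratio of -0.04, and the dimmer 1773 and 1619, a log2 ratio of -0.11. The ratios differed by 0.07 although the mean signals were 39.9-fold apart.

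Xbp1 gave 23162 signal units under agonists and 16492 under antagonists. Its log2 ratio of 0.25, or 1.19-fold higher under agonists, was the highest of the 10 genes and lay 0.34 above the median of all genes, and 80.7% of all genes had a ratio as low or lower. The software error was 0.20. XBP1 protein is active when made from the spliced transcript, and the 1 probe for Xbp1 gives the amount of transcript with no account of its splicing, since the files do not give the probe's position. The gap between Hspa5 and Xbp1 was 0.64 on the log2 scale.

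The size of these differences was set against the error that the arrays themselves show. Among 284 probes printed at 10 spots and well above background at all of them, the SD of the log2 ratio between spots had a median of 0.07 and a 95th percentile of 0.26. Among 3177 genes with 2 probes that passed the background criterion on each array, the probes differed in log2 ratio by a median of 0.15 and by up to 0.50 at the 90th percentile. A difference of at least 0.30, the distance of Hspa5 from the median of all genes, was found for 24.5% of these genes, and one of at least 0.34, the distance of Xbp1, in 20.0%. The gap between Hspa5 and Xbp1 was reached in 6.3%. These genes were the lowest and the highest of 10, so their gap is the range of 10 values. Such a range tends to exceed a difference between 2 probes. These shares therefore cannot show whether the gap or the distances are unusual. Hspa5 and Xbp1 had 1 probe each, so no other probe could be set beside them. The genes with 2 probes were not matched to Hspa5 and Xbp1 in signal.

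The 5 genes with a complete ERSE in the window had log2 ratios between -0.39 and -0.04, with a median of -0.19, and 4 of them lay below the median of all genes. The other 5, Dnajb9, Sdf2l1, Pdia3, Pdia4 and Xbp1, lay between -0.08 and 0.25, with a median of 0.09, and 0 of them lay below it. The groups overlapped, since Pdia6 (-0.04) had the element and lay above Pdia4 (-0.08). With quantile normalization, Hsp90b1, Calr and Pdia6 lay 0.09, 0.03 and 0.18 above the median of all genes, which left 2 of the 5 with the element below it. The brightest probes of these 5 gave 14588 to 72675 signal units under agonists. Those of the other 5 gave 945 to 5072, apart from Xbp1 at 23162. Whether the split follows the signal was not tested. Among 16 further genes with a complete ERSE that were well above background on both arrays, the ratios ran from -0.31 to 0.78 with a median of 0.03, and 5 lay below the median of all genes. Of the 16, Creld2 (-0.31), Syvn1 (-0.28), Ero1b (-0.19) and Dnajc3 (-0.02) are also in the ER lists below, and Derl3 (-0.10) is among the plasma cell markers. The highest, Acacb (0.78) and Xlr3a (0.62), are in none of these lists. The comparison was made after the ratios were seen and is given as a description.

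**Figure D3:**
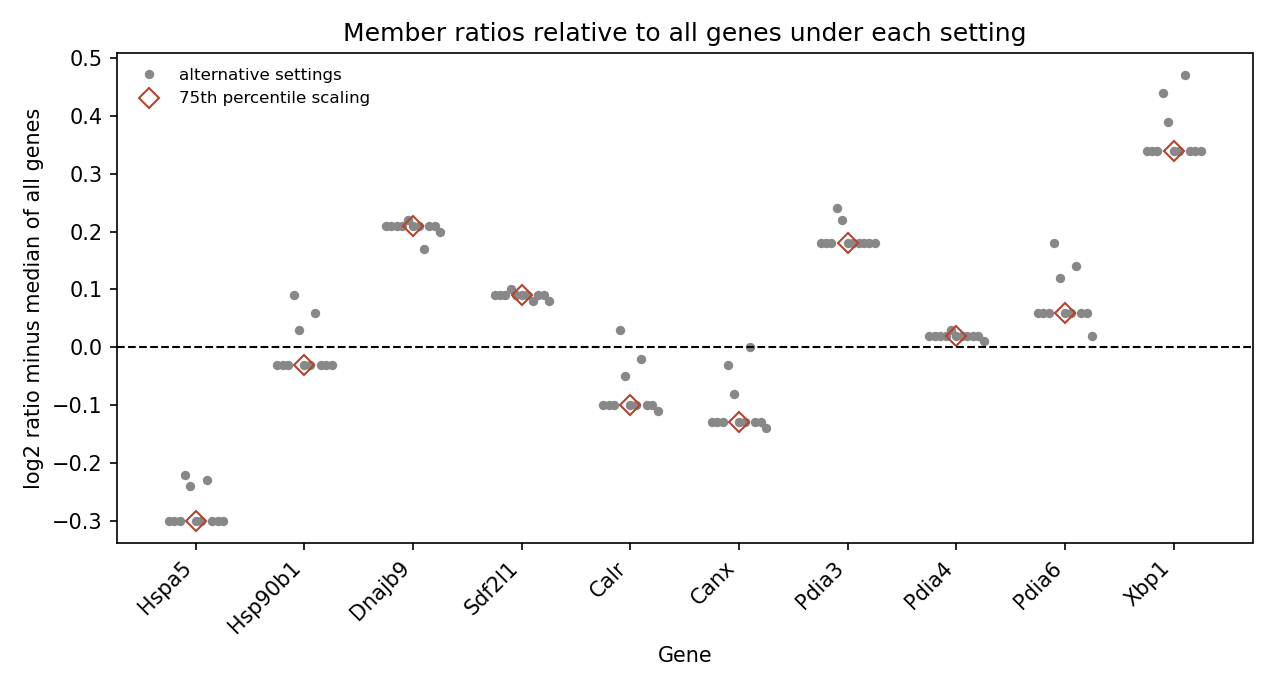
Log2 ratio of each of the 10 genes minus the median of all genes, with 75th percentile scaling (diamonds) and under 11 alternative settings (grey points). Hspa5 stayed between -0.30 and -0.22 and Xbp1 between 0.34 and 0.47, while Hsp90b1 and Calr crossed the dashed line at 0 in some settings.

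The direction of a log2 ratio depended on the scaling. Scaling by 1 value per array moved all genes by the same amount, whereas quantile normalization and loess moved genes by different amounts. The median of all genes was 0.18 with scaling on the spike-in controls, a shift of 0.28, and 0.15 with no scaling. With either, only Hspa5 of the 10 genes stayed below 0, and its ratio was then -0.12 and -0.15. Relative to the median of all genes, Hspa5 was the lowest and Xbp1 the highest of the 10 genes in each of the 12 settings, the 75th percentile included. Scaling by 1 value per array could not alter this order, nor could the median over spots, as each probe had 1 spot. Quantile normalization, loess and normexp could, and on this scale gave -0.22, -0.24 and -0.23 for Hspa5. For Xbp1 they gave 0.44, 0.39 and 0.47. On that scale Hsp90b1 went from -0.03 to 0.09 with quantile normalization and 0.03 with loess, and Calr from -0.10 to 0.03 and -0.05.

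Other genes of the same compartment were taken as lists, chosen with earlier results of these data known. Of 31 further ER folding genes, 26 had a log2 ratio below 0, where 62.3% of all genes had one, and 22 lay below the median of all genes. The median of the list was -0.21, or 0.07 with spike-in scaling, which set the arrays level on the RNAs added in known amounts and moved the median of all genes up by 0.28. At least 2-fold lower was 1 of the 31, against 0.57% of all genes. This was Ero1a, an oxidase that recharges disulphide isomerases. It gave 176 signal units under agonists and 396 under antagonists, a log2 ratio of -1.41. The thioredoxin-like Erp44 (-0.59) was also low and the disulphide isomerase Pdia5 (0.56) was high, while Prkcsh, a subunit of glucosidase II, and Erp29 gave -0.39 and -0.06. Of 9 genes of the stress sensors, their proteases and related transcription factors, 7 lay below the median of all genes. The 9 ran from -0.32 for Atf6 to 0.01 for Ern1, the gene of IRE1 that splices Xbp1, and their median was -0.19, or 0.08 with spike-in scaling.

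ER-associated degradation returns misfolded chains to the cytosol. Of 19 of its genes, 18 had a log2 ratio below 0, against 62.3% of all genes. The median of the 19 was -0.26, or 0.01 with spike-in scaling. Below the median of all genes lay 17 of the 19, and 0 were lower by 1.5-fold, against 4.28% of all genes. Herpud1, which joins the degradation complex, gave 4336 signal units under agonists and 4865 under antagonists, a log2 ratio of -0.41. Man1b1, a mannosidase, had the same log2 ratio. The brightest probe of Derl2, a channel component, gave -0.38, and its other probes -0.50 and -0.59. Genes of translocation, glycan transfer and transport from the ER had a median of -0.12, or 0.16 with spike-in scaling. Below the median of all genes lay 20 of 36. Of these 36, 0 were lower and 0 higher by 1.5-fold, against 4.28% and 9.26% of all genes.

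Genes that respond to ATF4, which PERK and other kinases can call up, and to CHOP reached further below 0. Of 15 genes of the ATF4 and CHOP branch, 8 were lower under agonists by 1.5-fold or more, against 4.28% of all genes. By 2-fold or more 2 were lower, against 0.57% of all genes. The median of the 15 was -0.60, or -0.32 with spike-in scaling. Atf4 gave 41652 signal units under agonists and 57535 under antagonists, a log2 ratio of -0.71, and -0.49 by its other probe. Asns, which makes asparagine, gave 9702 and 15105, a log2 ratio of -0.88. Ddit3, the gene of CHOP, and Trib3 had ratios of -1.32 and -1.49. Ddit4 was high, at 0.66. These are the values of 15 genes beside those of 10, and whether the lists differ was not tested. The list was chosen with earlier results of these data known, so its counts beside the shares of all genes are a description only.

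**Figure D4:**
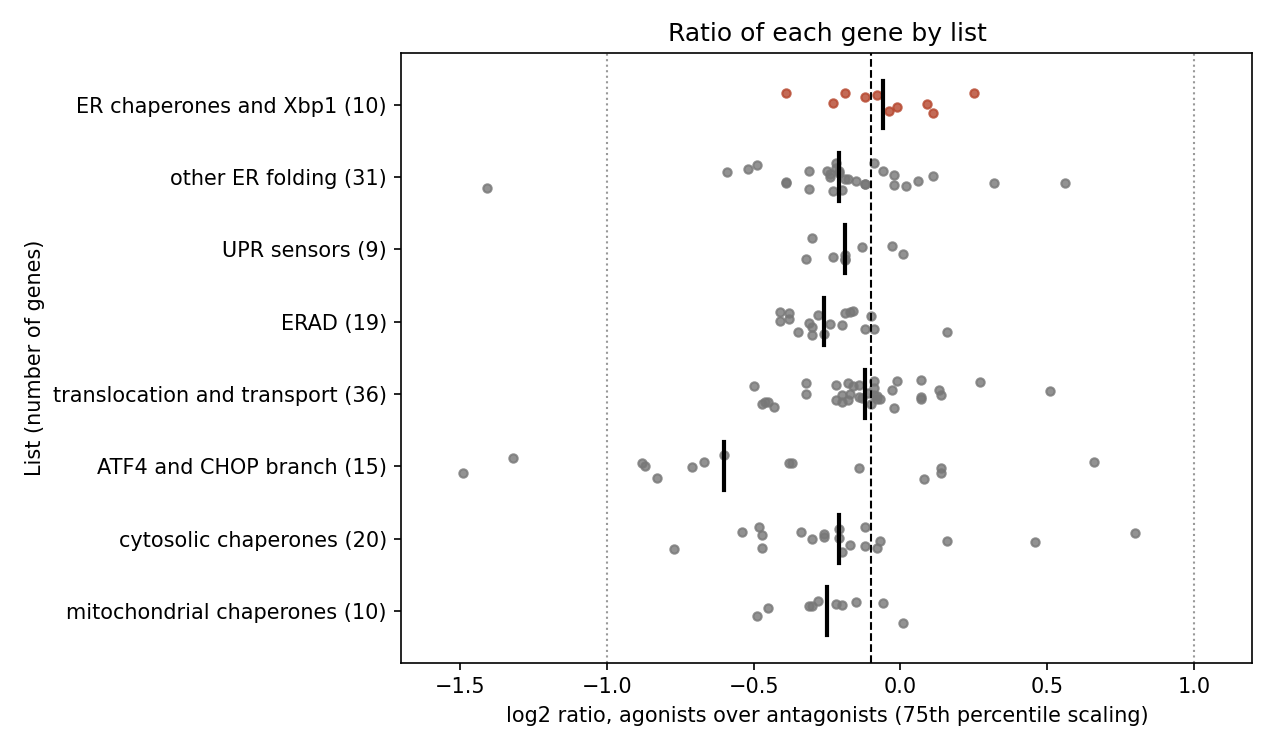
Log2 ratio of each gene, agonists over antagonists after 75th percentile scaling, by list, with the number of genes well above background on both arrays in parentheses. The lists were chosen with earlier results of these data known. Thick bars are the medians, the dashed line is the median of all genes and dotted lines mark a 2-fold difference. The ER chaperones and Xbp1 (median -0.06) sit around the dashed line, and the genes of the ATF4 and CHOP branch (median -0.60) spread furthest to the left.

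Chaperones of other compartments were set beside them. Of 21 cytosolic chaperone genes 20 had a named probe, and 15 of these lay below the median of all genes, with a median of -0.21, or 0.07 with spike-in scaling. Hspa8, the constitutive HSP70, gave -0.20, and Dnajb1, a heat shock co-chaperone, -0.54. Hspa1a gave -0.77 at 78.6 and 113 signal units, and its near-identical copy Hspa1b may share its signal. Hspb1, a small heat shock protein, was high at 0.80. Of 10 mitochondrial chaperone genes, 8 lay below the median of all genes, with a median of -0.25, or 0.02 with spike-in scaling. Hspd1 and Hspe1, the mitochondrial chaperonin and its partner, gave -0.45 and -0.49.

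The tissue was checked by its markers. Of 8 granulosa and 8 oocyte markers, 8 and 8 were well above background on both arrays, and Insl3 and Cd68 had no named probe among the theca and macrophage markers. Granulosa markers had a median log2 ratio of -0.47 with 6 of 8 below 0, against 62.3% of all genes. The summed scaled signal of these markers, in units of the 75th percentile, was 100.0 under agonists and 131 under antagonists. Surface epithelium markers had a log2 ratio above 0 in 6 of 6 cases, against 37.7% of all genes. Their median was 1.01, with sums of 37.1 and 17.4. Stroma, endothelium, macrophage and smooth muscle markers had medians between 0.41 and 0.76. The oocyte median was 0.11, with sums of 244 and 251, and the theca median -0.10, with sums of 85.1 and 84.1. Of the markers of plasma cells, a cell type rich in ER, Jchain, Pou2af1, Tnfrsf17 and Irf4 were not well above background on either array. The sums over all 7 plasma cell markers were 12.5 and 13.3. Most of these sums came from Derl3, with 6000 and 5420 signal units, and Sdc1, with 2255 and 2044. Derl3 also had a complete ERSE in its window. The sums therefore say little about plasma cells. Of those of the exocrine pancreas, Pnlip and Prss2 were not well above background on either array. The other 3 had a median log2 ratio of 0.99, with Amy2a5 at 1.19, Cela1 at 0.99 and Cpa1 at -0.05. Cela1 gave 57.1 signal units under agonists and 24.3 under antagonists, with a software error of 0.35. The latter signal is near the lowest well above background on that array, 19.9. The sums over all 5 pancreas markers, Pnlip and Prss2 included, were 4.13 and 4.17, most of it from Cpa1. Its probe gave 2632 and 2310 signal units against 75.4 and 28.0 for Amy2a5. The part of the cell makeup in the ratios of the ER chaperones was not tested.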

How the data were processed

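Pieces of cultured ovary were profiled on SurePrint G3 Mouse GE arrays, 1 per group. The authors had them read with Agilent Feature Extraction and deposited the intensity of each spot, background-corrected and without scaling between arrays. The deposited summary table holds the same intensities times a constant per array (1.99 for the agonists, 2.19 for the antagonists). Both arrays were on the same slide. From these files, control and outlier spots were left out, signals were taken as log2 minus the 75th percentile of the array, and spots were averaged per probe (55674 probes). Names came from RefSeq transcripts (assembly GRCm38.p6, names and promoter windows only), for 27230 probes. A gene was represented by its brightest probe well above background on both arrays (15260 genes). In each list, the genes named were taken from the 3 with the largest log2 ratio in size and the 2 brightest, and Ern1 was added after its value was seen. Members and lists were chosen with earlier results of these data known. Alternatives were other scalings, the deposited summary values, normexp (offset 50), the median in place of the mean over spots or of the brightest probe, other thresholds and other filters. Python 3.11.15, numpy 2.4.6, pandas 2.3.3, statsmodels 0.14.6 (loess, span 0.3), R 4.3.3 and limma 3.58.1 were used, and the calculation was tested on simulated data. The number of arrays limits the precision.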

Additional observations from a re-analysis of the deposited data

How the results depend on the processing

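No paired analysis was possible because there is 1 array for each group and the results come from no test. The count of genes below the median of all genes was added after the data were seen. The median log2 ratio of the 10 genes, -0.06, was 0.18 with no scaling and 0.22 on spike-in controls. The number of them below 0, 7, became 1 with no scaling, 1 with spike-in controls, 3 with loess, and 4 with the 75th percentile of probes detected on both arrays, quantile normalization and the authors' values. The median of all genes was then 0.15, 0.18, 0.01, -0.01, -0.05 and 0.01 in the same order, against -0.10 in the main scaling. The share of all genes below 0, 62.3%, holds for the main scaling only and is not given for these settings. With no scaling, spike-in controls, probes detected on both arrays and the authors' values, the number below the median of all genes stayed at 4, as it did in 8 of the alternatives in all. A change of 1 value per array cannot alter this number. It was 3 with loess and with normexp, and 2 with quantile normalization, which moved the median of all genes by 0.04. The number at least 2-fold lower or higher was 0 in every setting tried. A limit of 2 times the software's error and a 1.5-fold threshold also gave 0 lower. With no scaling the list medians were 0.03 (further ER folding), 0.05 (sensors), -0.02 (degradation), 0.12 (translocation and transport), -0.36 (ATF4 and CHOP branch), 0.03 (cytosolic chaperones) and -0.01 (mitochondrial chaperones). With spike-in scaling they were 0.07, 0.08, 0.01, 0.16, -0.32, 0.07 and 0.02 in the same order. The percent of all genes at least 2-fold lower, 0.57, became 2.68 with no filter on dim probes, 0.225 for bright genes alone (mean signal from the 75th percentile up) and 4.28 at 1.5-fold, and the percent higher, 4.01, became 6.53, 2.09 and 9.26. Of 110 single-gene values under the 11 alternatives, 90 moved by less than the software's error of 0.20 and 20 by more. All 20 came from leaving the arrays unscaled or from levelling them on the spike-ins. Either choice shifted the 10 genes alike, so these are not 20 separate results. Among the 90, the median over spots could not move a ratio, as each probe had 1 spot. Keeping outlier spots left the ratios unchanged. In 26 of the 110 the ratio took the opposite sign or became 0. The cause of the changes under loess, normexp and quantile normalization was not tested. Of the 10 genes, Dnajb9 had the dimmest probe, and 12 of the 12 probes were well above background on both arrays, so background limits these ratios little.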
